A study of Mus musculus with 4 samples.

Results

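The chondroitin sulfate proteoglycans and tenascins of the brain matrix were followed here in cultures of mouse cortical neurons and astrocytes. The set was named by gene: the lecticans Ncan, Bcan, Acan and Vcan, the membrane proteoglycans Ptprz1 and Cspg5, the tenascins Tnc and Tnr, and the link protein Hapln1. All probe sets whose single platform symbol is one of these 9 genes were taken, which gave 25 of the 45037 probe sets for transcripts on the array. Of the 25, 15 were bright enough to be tested and 10 were not: Vcan had 8 probe sets (3 tested), Hapln1 4 (0 tested), Ncan and Ptprz1 3 each (all tested), Bcan and Tnc 2 each (all tested), and Cspg5, Tnr and Acan 1 each (Acan's was not tested). Thus 7 of the 9 genes had at least 1 tested probe set.

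Expression was measured with 4 Affymetrix arrays, 2 from neuron cultures and 2 from astrocyte cultures of C57BL6 cortex, each array being a separate biological replicate by its title. Neurons were taken from fetuses of embryonic day 16, seeded at first in 10% serum and glucose at 33 mM, and then held in a low-serum medium (1% serum) with glucose at 19.4 mM, glutamine at 4 mM and added selenite, putrescine, progesterone, transferrin and insulin. Astrocytes were taken from newborn mice and stayed in 10% serum, with glucose at 33 mM and glutamine at 2 mM. The series text gives 7 days of culture for neurons and 20 days for astrocytes, while the protocol text gives 7 to 8 days for all assays. Cell type, donor age, medium and, by the series text, culture time cannot be told apart in this design. No genotype beyond the strain is given, and how many animals went into a culture is not given either, so that p-values measure the spread between these cultures.

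As background, lecticans are large secreted core proteins that carry chondroitin sulfate chains; one end binds hyaluronan, a junction held by link proteins such as Hapln1, and the other end binds tenascins, above all tenascin-R. Together they form the loose matrix of the developing brain and, later, the perineuronal nets that wrap some neurons. Ptprz1 is a receptor tyrosine phosphatase whose secreted extracellular form is the proteoglycan phosphacan, and Cspg5 (neuroglycan C) is a transmembrane proteoglycan of neurites. In the mouse gene table (assembly GRCm38.p6) each of the 4 lecticans had a link protein gene as its direct protein-coding neighbour, with 0 protein-coding genes between them: Ncan and Hapln4 on chromosome 8, Bcan and Hapln2 on chromosome 3, Acan and Hapln3 on chromosome 7, and Vcan and Hapln1 on chromosome 13.

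The markers of both cultures matched their labels in the main, and markers of other cells were present in both. All 12 neuron markers were higher in neurons, where the synaptic gene Snap25 read 4360 and 3813, against 1 and 2 in astrocytes, the migration gene Dcx 2471 and 3350 against 3 and 1, Stmn2 5727 and 6022 against 1465 and 1485, and the tubulin gene Tubb3 2875 and 3021 against 68 and 63. Of the astrocyte list, 11 were measured, with 8 called higher in astrocytes and the reverse for 2. Those 2 were Aldoc and Slc1a2. Slc1a2 read 1832 and 1865 in neurons and 431 and 379 in astrocytes (4.47-fold, limma adjusted p = 1.84e-06). The astrocyte filament gene Gfap read 2 and 109 in neurons and 1744 and 2133 in astrocytes, Mlc1 276 and 276 against 2321 and 2779, and Aldoc 2574 and 3422 against 1842 and 2076. The list's summed signal was still 9110 and 10301 in neurons, against 20242 and 20732 in astrocytes.

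Of 8 measured oligodendrocyte lineage markers (of 12 listed), 5 were higher in neurons and 2 in astrocytes, with summed signals of 5817 and 5239 in neurons and 5585 and 6190 in astrocytes. Microglial genes were higher in astrocytes for 7 of 8 measured and in neurons for 0, with sums of 184 and 238 in neurons and 1002 and 1005 in astrocytes. Among them Ctss read 3 and 28 in neurons and 295 and 272 in astrocytes, C1qa 2 and 2 against 124 and 156, and Csf1r 47 and 40 against 149 and 151, while Aif1 was too dim to be tested (4 and 14 against 13 and 25). Fibroblast and meningeal genes were higher in astrocytes for 7 of 10 and in neurons for 1, with sums of 2115 and 1504 in neurons and 9697 and 9909 in astrocytes. Of these, Col1a1 read 27 and 24 in neurons and 41 and 103 in astrocytes, Col1a2 63 and 20 against 678 and 678, and Thy1 1535 and 808 against 1638 and 1814. Endothelial and mural genes were higher in astrocytes for 2 of 4 measured (of 12 listed), the mural genes Acta2 and Tagln. The list summed to 233 and 639 in neurons and 7444 and 8294 in astrocytes. Acta2 (4544 and 4791) and Tagln (2691 and 3331) made up most of the astrocyte sums. The mural gene Rgs5 was not called (22 and 27 in neurons, 36 and 32 in astrocytes), and Kcnj8 and Abcc9 were too dim to be tested. The endothelial gene Pecam1 read 18 and 3 in neurons and 4 and 2 in astrocytes. Ependymal and choroid genes, which summed to 178 and 167 in neurons and 931 and 1004 in astrocytes, were higher in astrocytes for 3 of 3 measured (of 8 listed), with Foxj1 at 35 and 24 in neurons and 410 and 407 in astrocytes and Dynlrb2 at 21 and 38 against 376 and 439. The rest of that list was too dim to be tested, and in it the choroid gene Ttr read 44 and 19 in neurons and 14 and 11 in astrocytes.

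Progenitor genes went both ways, with 6 of 10 higher in astrocytes and 3 in neurons, and summed to 13727 and 12829 in neurons and 26543 and 25504 in astrocytes. Nes read 162 and 52 in neurons and 1131 and 1320 in astrocytes, and Fabp7 8615 and 8404 against 7941 and 8150. The 3 higher in neurons were the genes of dividing cells Mki67 (468 and 298 in neurons, 13 and 16 in astrocytes) and Top2a (529 and 356 against 89 and 115), and the Notch target Hes5 (63 and 81 against 12 and 19). The part of these other cells in the results was not tested. The replicates of a group correlated at 0.980 (neurons) and 0.983 (astrocytes) across tested probe sets, which are not independent points.

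Read by its brightest tested probe set, 4 of the 7 measured genes were higher in neurons (Tnr, Vcan, Ncan and Cspg5), 2 were higher in astrocytes (Tnc and, by a small margin, Ptprz1), and Bcan did not pass the test. Over all 12040 measured genes the same test called 31.0% higher in neurons and 31.1% higher in astrocytes. A gene was called where limma's adjusted p was under 0.05, and folds were taken on the log2(signal + 12.5) scale, whose offset of 12.5 understates the change of dim genes. The median log2 fold change (neurons minus astrocytes) was 1.38 over the 7 genes and 0.02 over all measured genes. By probe set, 9 of the 15 were higher in neurons and 4 in astrocytes, against 29.4% and 27.7% of the 25019 tested probe sets. The same 9 and 4 had signals that did not overlap between the cultures, where 40.7% and 37.7% of all tested probe sets did not. Tnr 1436148_at and Tnc 1456344_at reached the array medians only in the culture where they were higher. Their lack of overlap was thus largely set by the filter and is no separate support. The 9 members were picked by name, and 2 of them were left out of these counts by the filter on dim signals. In these bulk samples, fewer cells that make a transcript and less of it per cell cannot be told apart.

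**Figure D1:**
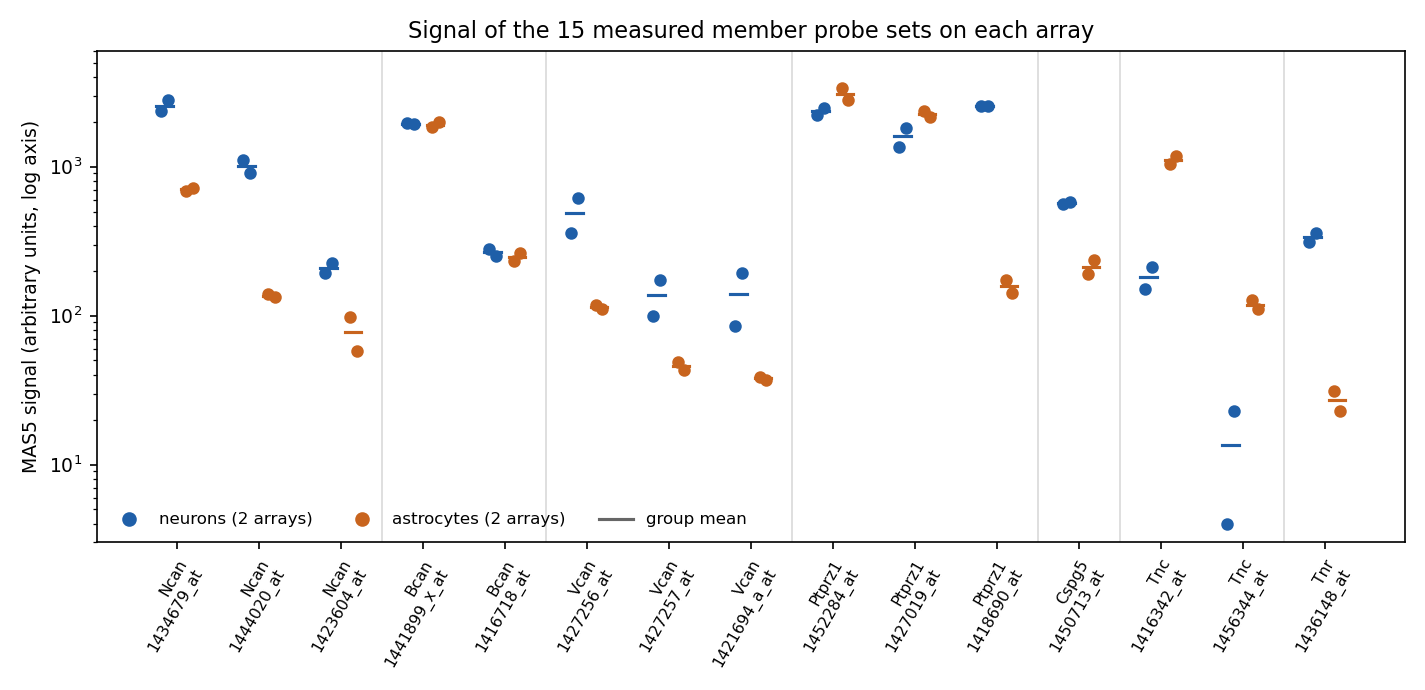
Signal of the 15 tested probe sets (arbitrary units of the MAS5 scale, log axis) on the 2 neuron arrays (blue, left of each pair) and the 2 astrocyte arrays (orange), with a bar at each group's mean. The Ncan, Vcan, Cspg5 and Tnr pairs lie higher in neurons, both Tnc pairs lie higher in astrocytes, the Bcan pairs lie level, and the Ptprz1 probe sets point in both directions.

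The start regions of 4 genes with clear differences are given first, 3 higher in neurons (Ncan, Vcan, Tnr) and 1 higher in astrocytes (Tnc), so that the genes that moved the same way can be set beside each other. Each window holds the 250 bases before and the 50 bases after the RefSeq start, read 5′ to 3′ on the gene's strand from build GRCm38.p6. Capitals mark matches, on either strand, to 6 short motifs. The TATA box was searched as TATAAA, where general transcription factors assemble, and the GC box as GGGCGG, which Sp family factors bind. The E box of basic helix-loop-helix factors was searched as CAGCTG, and the site of AP-1 (the Fos and Jun factors) as TGANTCA. The motif of SOX factors was searched as ACAAAG, and that of nuclear factor I as TTGGCA.
Ncan, chr8:70120795-70121094 (minus strand): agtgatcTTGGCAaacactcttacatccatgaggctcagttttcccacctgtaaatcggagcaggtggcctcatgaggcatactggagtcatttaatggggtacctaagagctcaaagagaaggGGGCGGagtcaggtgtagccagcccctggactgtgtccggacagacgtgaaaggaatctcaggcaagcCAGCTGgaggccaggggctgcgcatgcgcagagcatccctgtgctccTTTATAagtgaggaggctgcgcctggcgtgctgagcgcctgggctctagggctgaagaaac
Vcan, chr13:89742463-89742762 (minus strand): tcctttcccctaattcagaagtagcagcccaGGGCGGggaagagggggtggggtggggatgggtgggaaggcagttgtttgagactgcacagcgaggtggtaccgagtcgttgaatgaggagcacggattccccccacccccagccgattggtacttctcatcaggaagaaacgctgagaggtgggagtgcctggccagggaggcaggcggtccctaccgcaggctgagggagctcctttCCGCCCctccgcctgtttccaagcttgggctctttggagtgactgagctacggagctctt
Tnr, chr1:159523519-159523818 (plus strand): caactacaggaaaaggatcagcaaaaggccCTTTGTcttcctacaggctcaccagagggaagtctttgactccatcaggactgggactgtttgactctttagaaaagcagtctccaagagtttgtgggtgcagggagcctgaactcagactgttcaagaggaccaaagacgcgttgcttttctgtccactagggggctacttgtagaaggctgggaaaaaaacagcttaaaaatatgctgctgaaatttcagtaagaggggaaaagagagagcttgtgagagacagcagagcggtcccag
Tnc, chr4:64046966-64047265 (minus strand): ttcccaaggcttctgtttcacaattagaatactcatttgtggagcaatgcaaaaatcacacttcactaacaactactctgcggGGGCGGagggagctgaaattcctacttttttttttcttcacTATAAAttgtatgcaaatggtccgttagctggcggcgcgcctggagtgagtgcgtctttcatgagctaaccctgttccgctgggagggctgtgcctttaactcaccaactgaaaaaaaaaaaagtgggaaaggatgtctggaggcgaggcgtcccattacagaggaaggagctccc

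A window was found for 8 of the 9 genes (9 windows, since Tnc has 2 listed starts whose windows overlap; the one farther upstream is shown). Cspg5 had no entry. No searched motif was found in all 3 windows of genes higher in neurons, while the GC box was in those of Ncan and Vcan: the Ncan window held 1 match each to the TATA box, the GC box, the E box and the nuclear factor I motif, the Vcan window 2 matches to the GC box, and the Tnr window 1 match to the SOX motif. The Tnc window shown held 1 match to the TATA box and 1 to the GC box. The other Tnc window held the same matches and 1 to the nuclear factor I motif. Among the remaining windows, those of Bcan, Acan and Ptprz1 also held the GC box, Acan's held the E box, and Hapln1's held no searched motif. The TATA match began at base -11 in Ncan, on the opposite strand, and at base -126 in the Tnc window shown. No member window held the AP-1 motif, and the searched motifs did not overlap in the windows shown. Over all 32851 windows of the table, 13.6% held the TATA box, 35.7% the GC box, 16.3% the E box, 7.81% the AP-1 motif, 18.7% the SOX motif and 14.1% the nuclear factor I motif. The windows also differed in base composition, beside a median of 52.7% G and C over all windows. G and C made up 74.0% of the Acan window, 71.7% for Ptprz1, 64.0% for Bcan, 61% for Vcan and 56.7% for Ncan. The share was 54.3% for Hapln1, 48.0% for Tnr, 47.3% for the Tnc window shown and 54.0% for the other Tnc window. Tnr and Hapln1 had 3 CpG dinucleotides each, the Acan window 31 and the Ptprz1 window 29, with a median of 7 over all windows. A match describes the letters of the window and says nothing of whether a factor binds there.

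Ncan encodes neurocan, the lectican of the young nervous system. Its brightest probe set, 1434679_at, had signals of 2358 and 2781 in neurons, against 691 and 723 in astrocytes, 3.58-fold higher in neurons (log2 fold change 1.84, SE 0.12, limma adjusted p = 4.56e-06). Both neuron arrays lay far above both astrocyte arrays, although the astrocyte level was itself well above background. Probe set 1444020_at had 1115 and 901 in neurons and 139 and 133 in astrocytes, a 6.84-fold difference (log2 fold change 2.77, SE 0.15, adjusted p = 1.54e-06). The dimmest, 1423604_at, had 194 and 225 in neurons and 98 and 58 in astrocytes (2.51-fold, adjusted p = 0.00138). All 3 probe sets thus pointed the same way with folds of different size. The last one was no longer called without neurons replicate 1 (adjusted p = 0.0595) or 2 (0.0794). Of all measured genes, 9.19% had a larger neuronal excess than Ncan by its brightest probe set.

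Vcan encodes versican, the lectican with the widest tissue range, whose splice forms differ in how many chondroitin chains they carry. Probe set 1427256_at read 357 and 618 in neurons, against 118 and 111 in astrocytes, 3.80-fold higher in neurons (log2 fold change 1.93, SE 0.24, adjusted p = 0.000171). The groups did not overlap, but the neuron arrays were far apart. Probe set 1427257_at gave 100 and 174 in neurons and 49 and 43 in astrocytes (2.48-fold, adjusted p = 0.00266), and 1421694_a_at gave 85 and 193 in neurons and 39 and 37 in astrocytes (2.80-fold, adjusted p = 0.00443). On all 3 the second neuron culture was higher than the first, by 0.77, 0.73 and 1.08 on the log2 scale, a gap that 3.69%, 4.42% and 1.04% of tested probe sets exceeded. The log2 fold change of 1427256_at was 1.54 without neurons replicate 2 and 2.31 without neurons replicate 1, past the threshold in both fits. The 2 dimmer probe sets missed it without astrocytes replicate 1 (adjusted p = 0.0763 and 0.119) or astrocytes replicate 2 (0.0947 and 0.128).

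Transcripts of other cells also differed between the neuron cultures, in both directions, and their part in the Vcan values was not tested. The endothelial and mural list summed to 233 in the first neuron culture and to 639 in the second. Of its 12 genes, 8 lay at or under background on both neuron arrays. In that list Acta2 (smooth muscle actin) read 87 and 361 in the neuron cultures, and Tagln (transgelin, also of smooth muscle) 6 and 95. Gfap was likewise lower on the first array (2) than on the second (109). The sum of the fibroblast and meningeal list was 2115 in the first neuron culture and 1504 in the second. Most of that sum was Thy1 (1535 and 808), which was not called between neurons and astrocytes. The other genes of the list went both ways: Col1a2 read 63 and 20, while Dcn read 290 and 391 and Ogn 18 and 66. The fall of the sum thus does not describe the list as a whole. Oligodendrocyte lineage genes differed between the neuron cultures in both directions: Gpr17, named after its values were seen, read 90 and 280 in neurons and 2 and 19 in astrocytes, and Olig1 read 2899 and 1895 against 3500 and 3997. Pdgfra, the receptor of oligodendrocyte precursors, read 1177 and 1302 in neurons and 19 and 21 in astrocytes, the myelin gene Mbp 420 and 431 against 16 and 16, and Olig2 663 and 642 against 617 and 508. The 2 genes of the list called higher in astrocytes were Olig1 and Cnp. Cnp read 366 and 500 in neurons and 1344 and 1536 in astrocytes (3.29-fold, limma adjusted p = 3.61e-05). Mag and Mog, genes of mature myelin, were too dim to be tested, and Mog read 15 and 11 in neurons and 1 and 4 in astrocytes. Precursors of oligodendrocytes are known to make several of the proteoglycans described here, and their part in the neuronal values was not tested.

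Bcan encodes brevican, a lectican of glia and perineuronal nets in the adult brain. Its bright probe set, 1441899_x_at, had 1949 and 1926 in neurons and 1843 and 1990 in astrocytes, so that the neuron values lay inside the astrocyte range. The log2 fold change was 0.02 with a 95% interval of -0.23 to 0.26 (adjusted p = 0.907). The second probe set, 1416718_at, had 281 and 253 in neurons and 232 and 264 in astrocytes, with a log2 fold change of 0.10 and an interval of -0.24 to 0.45 (adjusted p = 0.593). No difference in Bcan was detectable with 2 arrays a group, which does not show equal levels. Probe sets whose names end in _x_at can also match other transcripts.

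Cspg5, the membrane proteoglycan with an EGF-like domain, had 563 and 580 in neurons and 191 and 236 in astrocytes on its only probe set, 1450713_at. The 2 neuron cultures differed little from each other and both lay above the astrocyte cultures. The difference was 2.60-fold (log2 fold change 1.38, SE 0.15, adjusted p = 8.03e-05), and 13.2% of measured genes had a larger neuronal excess.

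Ptprz1 gave opposite answers depending on the probe set. By 1452284_at it read 2238 and 2495 in neurons, against 3356 and 2814 in astrocytes, 1.30-fold higher in astrocytes (log2 fold change -0.38, SE 0.12, adjusted p = 0.0286). By 1427019_at it read 1365 and 1824 in neurons and 2360 and 2161 in astrocytes, 1.43-fold higher in astrocytes (log2 fold change -0.51, SE 0.15, adjusted p = 0.0168). By 1418690_at it read 2554 and 2551 in neurons, against 174 and 141 in astrocytes, 15.2-fold higher in neurons (log2 fold change 3.92, SE 0.14, adjusted p = 2.05e-07). The first 2 probe sets share a reference transcript in the platform table, while the table gives no accession for the third. Only 1.53% of tested probe sets had a larger neuronal excess than 1418690_at.

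On each array the log2 ratio of 1452284_at over 1418690_at was -0.19 and -0.03 in neurons, against 4.17 and 4.20 in astrocytes, so the ratio changed by -4.30 between the cultures. An exact permutation test of 2 arrays against 2 gives p = 0.333, the smallest it can give (two-sided). Of 5559 genes with more than 1 tested probe set, 177 (3.18%) had probe sets called in both directions, and 28 (0.504%) spread over at least the 4.44 log2 units found for Ptprz1. Both criteria were met by 11 genes, Ptprz1 among them. The median spread over the probe sets of a gene was 0.51. Transcript forms of Ptprz1 are known to differ between the long receptor, a short receptor and secreted phosphacan. Which of these each probe set reads was not analysed here, and the cause of the disagreement was not tested.

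The calls on the astrocyte side were close to the threshold. 1452284_at missed it without neurons replicate 1 (adjusted p = 0.233), neurons replicate 2 (0.118) or astrocytes replicate 1 (0.181), and 1427019_at missed it without neurons replicate 1 (0.139), astrocytes replicate 1 (0.201) or astrocytes replicate 2 (0.132). Averaging the 3 probe sets turned the gene's direction, to a log2 fold change of 1.01 (adjusted p = 0.000124).

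**Figure D2:**
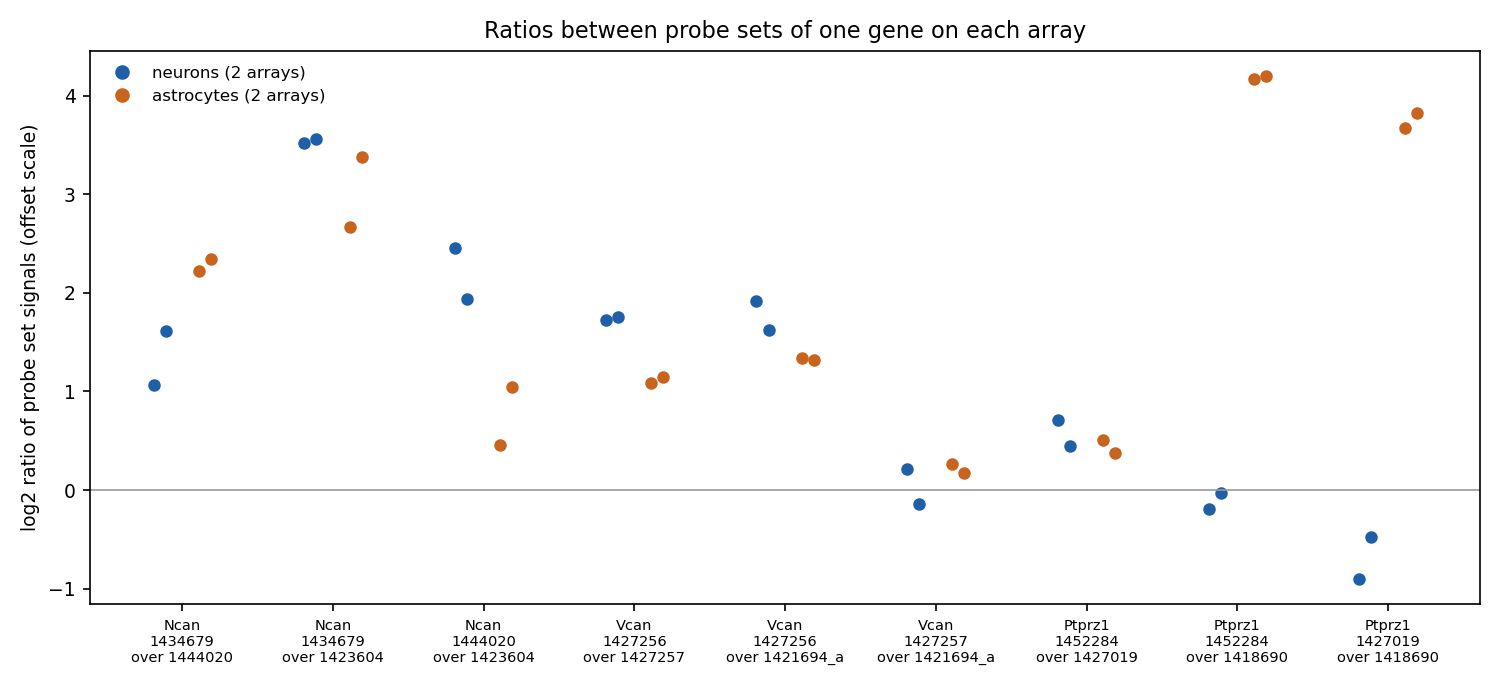
Log2 ratio of the signals of probe sets of one gene (with the offset added) on each neuron array (blue) and astrocyte array (orange), for the genes with 3 tested probe sets, Ncan, Vcan and Ptprz1. Ratios of both other Ptprz1 probe sets to 1418690_at lie at or under 0 in neurons and between 3.67 and 4.20 in astrocytes, while 1452284_at over 1427019_at lies between 0.38 and 0.71 on all 4 arrays.

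The tenascins were split between the cultures. Tnr encodes tenascin-R, which crosslinks lecticans in the neural matrix; its single probe set, 1436148_at, had 312 and 358 in neurons and 31 and 23 in astrocytes. The astrocyte signals were just above the array background of 17 and 15 (the highest Bacillus subtilis control of each array). The difference was 8.82-fold (log2 fold change 3.14, SE 0.19, adjusted p = 2.93e-06), the largest neuronal excess of the 7 genes by their brightest probe sets, and 3.44% of measured genes exceeded it. Since the fold of so dim a gene depends on the offset, the log2 fold change was 2.32 with an offset 4 times as large and 3.50 with one 4 times smaller.

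Tnc encodes tenascin-C, a glycoprotein of the embryonic and injured brain matrix. Probe set 1416342_at had 152 and 211 in neurons, against 1048 and 1180 in astrocytes, 5.86-fold higher in astrocytes (log2 fold change -2.55, SE 0.17, adjusted p = 4.68e-06). The groups were far apart, and of all measured genes 4.29% had a larger astrocytic excess. The dimmer 1456344_at had 4 and 23 in neurons, at or under the array backgrounds of 21 and 23, and 127 and 110 in astrocytes, at least 5.39-fold higher in astrocytes (adjusted p = 0.00041). Both probe sets pointed the same way, and on the dimmer one the neuron arrays differed by 1.11 on the log2 scale, a gap exceeded by 0.967% of tested probe sets. The dimmer one was no longer called without astrocytes replicate 1 (adjusted p = 0.0564). Of the fibroblast and meningeal genes, 7 of 10 measured were also higher on the astrocyte arrays. The largest changes were those of Islr (29 and 32 in neurons against 2465 and 2689 in astrocytes) and Ogn (18 and 66 against 3477 and 3368). Lum went the other way (40 and 45 against 23 and 17), and Dcn and Thy1 were not called. Of the mural genes, Acta2 and Tagln were higher in astrocytes as well, while Rgs5 was not called and Kcnj8 and Abcc9 were too dim to be tested. The part of these other transcripts in the Tnc signal was not tested.

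**Figure D3:**
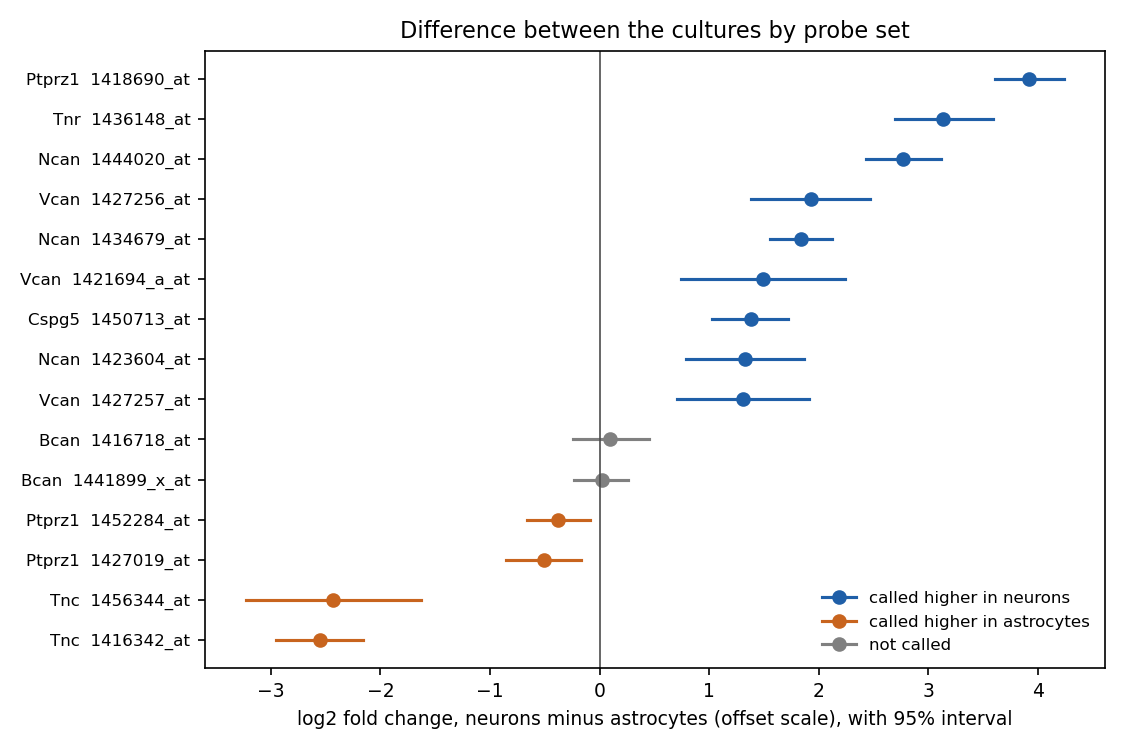
Log2 fold change (neurons minus astrocytes, with the offset added) of each tested probe set with its 95% interval from limma, coloured by call. Intervals of the 9 probe sets in blue lie above 0, those of the 4 in orange lie under 0, and those of both Bcan probe sets span 0; Ptprz1 has the highest value of all (3.92) and 2 values under 0.

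Acan, the aggrecan gene of cartilage and mature perineuronal nets, and Hapln1, the cartilage link protein gene, were too dim to be tested. The Acan probe set 1449827_at had 27 and 33 in neurons and 30 and 15 in astrocytes. The neuron values lay above the highest Bacillus subtilis control (21 and 23), and of the astrocyte values one lay above its array's control (17) and one at it (15). The 4 Hapln1 probe sets ran from 3 to 52 in neurons and from 2 to 31 in astrocytes. The brightest, 1438020_at, had 52 and 26 in neurons and 20 and 22 in astrocytes, with no overlap but a wide gap between the neuron arrays. The other 5 Vcan probe sets stayed between 0 and 25 in neurons and between 0 and 15 in astrocytes. These signals were not tested, and they do not show that the transcripts were absent.

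**Figure D4:**
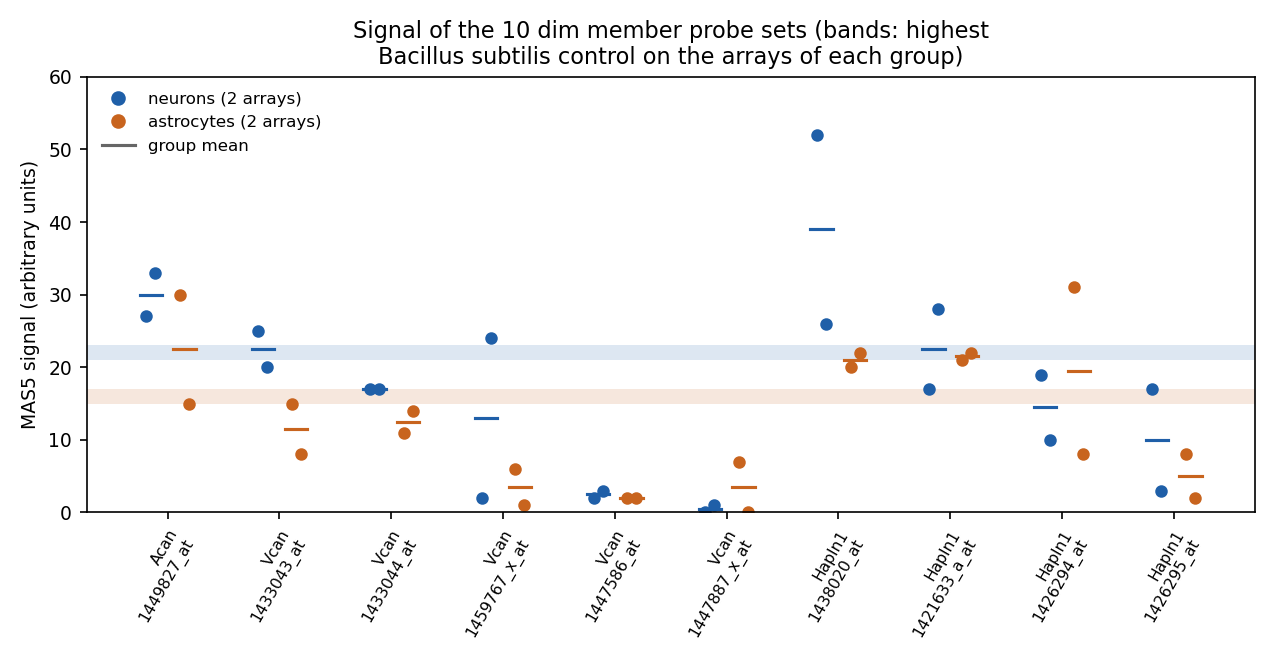
Signal (arbitrary units, linear axis from 0) of the 10 member probe sets that were too dim to be tested, on each neuron array (blue) and astrocyte array (orange), with bars at the group means. The shaded bands run between the array backgrounds of each group, 21 and 23 for neurons and 15 and 17 for astrocytes; Hapln1 1438020_at reached 52 on 1 neuron array, and no other value passed 33.

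Across the 4 arrays, the genes whose centred log2 values lay nearest to those of Tnr were Mcf2l (distance 0.052), Fnbp1l (0.058) and Cdh8 (0.073). Mcf2l, for example, had 901 and 1033 in neurons and 105 and 85 in astrocytes. Nearest to Tnc were Myd88 (0.026), Idh2 (0.055) and Tcea3 (0.064), and Myd88 had 29 and 43 in neurons and 253 and 291 in astrocytes. The Idh2 value rests on a probe set that may match several transcripts: without such probe sets its log2 fold change was -0.59 (adjusted p = 0.237), against -2.50. Each distance rests on 4 arrays.

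The genes that build, bind, cut or regulate this matrix differed in both directions. Of 112 genes in 8 lists, 90 were measured, 33 were higher in neurons and 37 in astrocytes, with a median log2 fold change of 0.06. Receptors and binding partners were mostly higher in neurons (14 of 22, with 4 higher in astrocytes, median 0.94), while matrix proteases and their inhibitors were mostly higher in astrocytes (11 of 14, with 2 higher in neurons, median -1.72), beside 31.0% and 31.1% of all measured genes and a median of 0.02. The same shares belong beside the counts of the lists below. Some genes of the lists reached the array medians only in the culture where they were higher, and so passed the filter through that culture alone. Among those higher in neurons were Chsy3, Chst15, Has3, Adamts15, Adamts20, Spock3 and Sox5. Those higher in astrocytes included Chst14, Dse, Srgn, Tgfb3 and Otx2.

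Enzymes that make the chains differed in both directions. Of 11 measured genes of linker and chain synthesis, 5 were higher in neurons and 2 in astrocytes (median 0.30). Chsy3, a chondroitin synthase, had 40 and 45 in neurons and 2 and 9 in astrocytes, at least 2.66-fold higher in neurons (adjusted p = 0.00142), and Csgalnact1, which starts the chain, was 1.89-fold higher in neurons (adjusted p = 0.00284). Chsy1 (1.5-fold, adjusted p = 0.00431) and Csgalnact2 (1.44-fold, adjusted p = 0.0316) were higher in astrocytes. By these calls both enzyme pairs were split between the cultures. Csgalnact2 missed the threshold with no filter (adjusted p = 0.0771) and with no mean-variance trend (0.0506). Fam20b, the xylose kinase of the linker and the gene with the highest mean, had 384 and 513 in neurons and 518 and 537 in astrocytes (adjusted p = 0.229). The count of 5 fell to 3 without neurons replicate 1 or astrocytes replicate 1 and to 2 without neurons replicate 2, and the count of 2 to 1 without either neuron array and to 0 without astrocytes replicate 1. Chsy3 then was no longer called without neurons replicate 2 (adjusted p = 0.0519), Chsy1 without astrocytes replicate 1 (0.0543), and Csgalnact2 without neurons replicate 1 (0.173), neurons replicate 2 (0.156) or astrocytes replicate 1 (0.193).

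Among 9 measured genes of sulfation and epimerization, 2 were higher in neurons and 3 in astrocytes (median -0.35). Chst15, which makes the disulfated E unit of chondroitin, had 176 and 179 in neurons and 12 and 13 in astrocytes, at least 11.1-fold higher in neurons (adjusted p = 5.5e-06), and Ust, the uronyl 2-sulfotransferase, had 108 and 105 against 34 and 12 (adjusted p = 0.00107). The dermatan enzymes differed among themselves: the epimerase gene Dse had 19 and 25 in neurons and 93 and 67 in astrocytes (2.66-fold, adjusted p = 0.00121), and the dermatan 4-sulfotransferase gene Chst14 had 6 and 27 against 84 and 96 (3.79-fold, adjusted p = 0.0016), both higher in astrocytes. Dsel, the brighter epimerase gene, had 344 and 349 in neurons and 327 and 358 in astrocytes, a log2 fold change of 0.02 that was not called (adjusted p = 0.924). Papss1, which makes the sulfate donor, had the highest mean, 760 and 886 in neurons and 664 and 720 in astrocytes (adjusted p = 0.145). Ust was no longer called without neurons replicate 1 (adjusted p = 0.0728) or 2 (0.0699), which left 1 gene higher in neurons, and Chst14 without astrocytes replicate 1 (0.0746) or 2 (0.0888).

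For hyaluronan and the link proteins, 2 of 8 measured genes were higher in neurons and 3 in astrocytes (median -0.38). The hyaluronan receptor Cd44 had 66 and 54 in neurons and 833 and 777 in astrocytes, 11.3-fold higher in astrocytes on its brightest probe set (adjusted p = 6.06e-07), and all 3 of its probe sets were called that way. Cemip, which degrades hyaluronan, was 5.95-fold higher in astrocytes (206 and 135 in neurons, 1121 and 993 in astrocytes). Has3, a hyaluronan synthase, had 48 and 83 in neurons and 1 and 7 in astrocytes, at least 4.09-fold higher in neurons (adjusted p = 0.000424), and Hmmr, which is also a gene of dividing cells, was 1.97-fold higher in neurons (102 and 63 in neurons, 40 and 30 in astrocytes, adjusted p = 0.0122), as were Mki67 (14.3-fold) and Top2a (3.93-fold); the part of dividing cells in the Hmmr value was not tested. Of the link protein genes beside the other lecticans, Hapln2 was too dim to be tested (33 and 32 against 24 and 9), Hapln3 had 41 and 38 in neurons and 38 and 28 in astrocytes (adjusted p = 0.501), and Hapln4 had 34 and 2 in neurons and 40 and 40 in astrocytes (adjusted p = 0.102). With no filter Hmmr was not called (adjusted p = 0.0616), which left 1 gene higher in neurons. Its call was also lost without neurons replicate 1, astrocytes replicate 1 or astrocytes replicate 2 (log2 fold changes of 0.68, 1.13 and 0.82).

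The partners of the proteoglycans were led by adhesion molecules of axons. L1cam was 34.9-fold higher in neurons (1955 and 1691 in neurons, 42 and 38 in astrocytes, adjusted p = 1.35e-07), and Cntn1, a contactin that binds Ptprz1 and tenascin-R, was 21.0-fold higher (3294 and 3303 against 146 and 145, adjusted p = 1.1e-07). Ptn, the growth factor pleiotrophin that binds Ptprz1, had the highest mean, 5242 and 4767 in neurons and 2638 and 2192 in astrocytes (2.07-fold, adjusted p = 0.000114). In astrocytes the largest was the syndecan Sdc4 (183 and 131 in neurons, 2099 and 2469 in astrocytes, 13.7-fold, adjusted p = 6.47e-07). Fibronectin, Fn1, followed (136 and 205 against 940 and 1050, 5.60-fold, adjusted p = 9.95e-06), with 1 of its 2 tested probe sets called. For Cntn1, 2 of 3 tested probe sets were called, both higher in neurons. Ptprs, a receptor of chondroitin sulfate, named after its values were seen, had 2350 and 2292 in neurons and 1200 and 1335 in astrocytes (1.83-fold, adjusted p = 0.000207).

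Among the proteases, Adamts1, which cleaves lecticans, had 81 and 119 in neurons and 1105 and 1159 in astrocytes, 10.3-fold higher in astrocytes (adjusted p = 1.4e-06). Timp3, an inhibitor of this family, was 11.9-fold higher in astrocytes (181 and 248 in neurons, 2864 and 2463 in astrocytes, adjusted p = 7.03e-07), and Timp2, with the highest mean, was 2.44-fold higher (1677 and 1797 against 4187 and 4315). Adamts20 had 100 and 153 in neurons and 16 and 1 in astrocytes, at least 7.91-fold higher in neurons (adjusted p = 0.000254), and Adamts15 had 80 and 78 in neurons and 17 and 19 in astrocytes (3.00-fold, adjusted p = 0.00033). Adamts4 and Adamts8 were too dim to be tested. Adamts20 was no longer called without neurons replicate 2 (adjusted p = 0.051).

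Of 11 other chondroitin proteoglycans measured, 4 were higher in neurons and 6 in astrocytes (median -0.55). The testicans Spock1 (633 and 429 in neurons, 29 and 22 in astrocytes, 14.1-fold, adjusted p = 2.14e-06) and Spock3 (228 and 221 against 10 and 0, at least 14.0-fold, adjusted p = 1.02e-05) led in neurons. Serglycin, Srgn (2 and 2 against 80 and 88, at least 3.82-fold, adjusted p = 2.33e-05), and biglycan, Bgn (52 and 26 against 240 and 272, 5.38-fold, adjusted p = 6.58e-05), led in astrocytes. Aplp2 had the highest mean and was 1.46-fold higher in astrocytes (adjusted p = 0.0273), with 3 of its 5 tested probe sets called. It missed the threshold with no filter (adjusted p = 0.111), with probe sets averaged (0.0539) and with no mean-variance trend (0.0758). The call was also lost without neurons replicate 2, astrocytes replicate 1 or astrocytes replicate 2 (log2 fold changes of -0.28, -0.63 and -0.46). The tenascins Tnxb and Tnn were too dim to be tested.

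Of 4 measured genes linked to perineuronal nets, 3 were higher in neurons, among them the potassium channel gene Kcna1 (460 and 350 in neurons, 20 and 35 in astrocytes, 10.5-fold, adjusted p = 5.63e-06) and Sema3a, a guidance cue that binds the nets (193 and 255 against 58 and 25, 4.56-fold, adjusted p = 0.000315, and 0.0565 without neurons replicate 2). The transcription factor gene Otx2 was at least 4.45-fold higher in astrocytes (11 and 7 against 100 and 96, adjusted p = 4.28e-05), and Pvalb, the marker of the neurons that nets most often wrap, was too dim to be tested (21 and 19 in neurons, 31 and 31 in astrocytes). Among 11 regulators 1 was higher in neurons and 7 in astrocytes (median -1.06). Sox5 had 192 and 256 in neurons and 15 and 13 in astrocytes (at least 14.0-fold, adjusted p = 5.63e-06). The TGF-beta receptor gene Tgfbr2 had 34 and 50 in neurons and 677 and 586 in astrocytes (11.9-fold, adjusted p = 1.46e-06), and the ligand gene Tgfb3 had 13 and 20 against 180 and 197 (at least 8.57-fold, adjusted p = 1.04e-05). Nfia, with the highest mean, had 545 and 530 in neurons and 962 and 990 in astrocytes (1.80-fold, adjusted p = 0.000335).

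**Figure D5:**
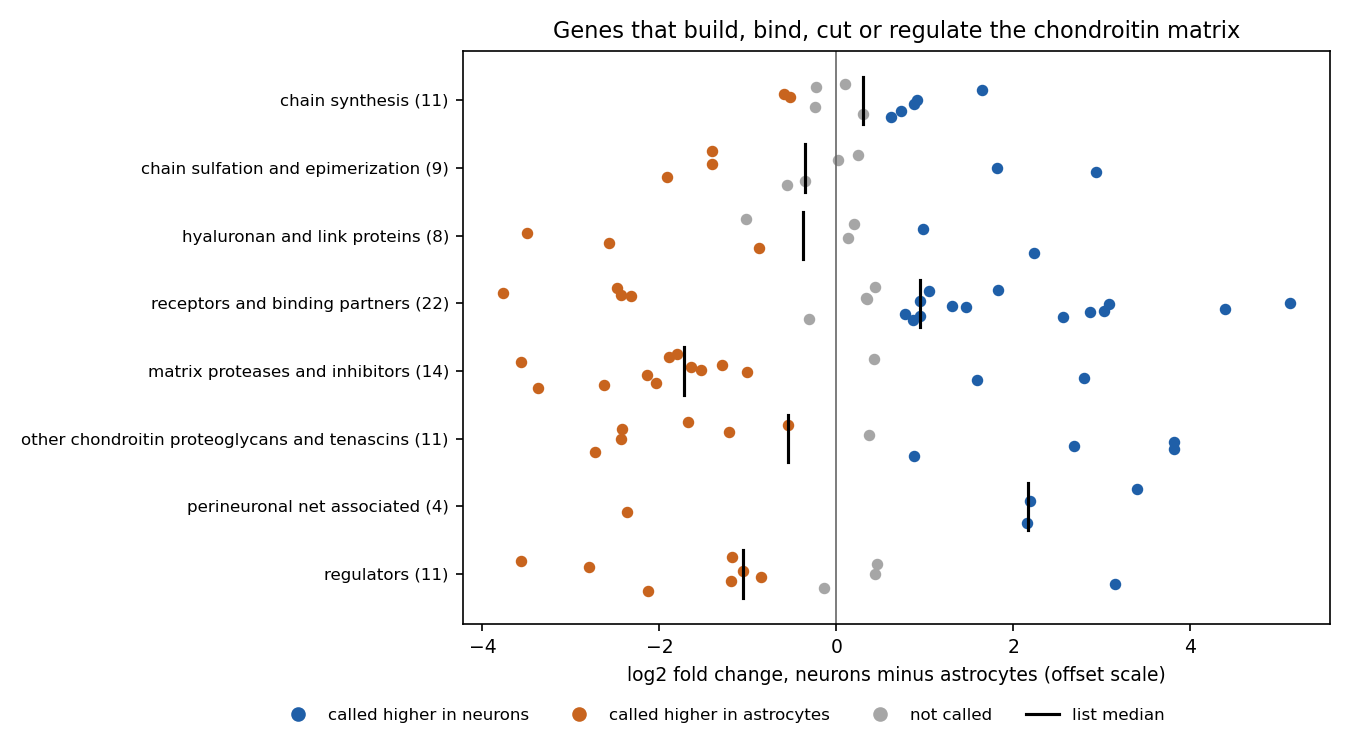
Log2 fold change (neurons minus astrocytes, with the offset added) of each of the measured genes of the 8 lists, by its brightest probe set; blue and orange points passed the test in the direction of neurons or astrocytes, grey points did not, and black bars are list medians. Receptors and binding partners lie mostly right of 0 (median 0.94) and matrix proteases and inhibitors mostly left of it (median -1.72).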

How the data were processed

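RNA was extracted with Trizol and 50 ng were labelled through 2 cycles of cDNA synthesis, per the labels' protocols. The authors deposited 1 intensity value per probe set and array; the submitters' processing notes name MAS5, with no version in the sources used here. They are whole numbers whose mean after trimming 2% at each end was 149.997 to 150.002 on each array. Control probe sets were left out. The values were taken as log2(value + 12.5), where the offset is the median over arrays of the 25th percentile, and a probe set was tested if at least 2 of the 4 arrays reached the array's median (25019 probe sets). The fit used limma (version 3.58.1, R version 4.3.3) (mean-variance trend, two-sided, 2 residual and 6.27 prior degrees of freedom), with Benjamini-Hochberg adjustment over all tested probe sets and a threshold of 0.05. The number of arrays limits the precision. A gene was read by its tested probe set with the highest mean. For Fn1, Cntn1, Csgalnact1, Nfia, Aldoc, Top2a, Mbp and Aplp2, among called genes, some other tested probe sets were not called. Platform symbols were updated by Entrez identifier (34741 of 34945). Folds carry the offset, except those given as "at least", which set the mean signal of one group against the mean array background (the highest of 27 Bacillus subtilis controls) where the other group lay at or under it. The fit was tested on simulated data. Members, gene lists, background rule and tests were chosen with earlier results of these data known. Named genes were all members, and from each pathway list the 2 largest called changes in each direction and the highest mean. From each marker list they were the highest mean and the 2 largest changes. The defining markers Pecam1, Col1a1, Tubb3, Gfap, Olig2 and Aif1 were also named. So were the 3 nearest genes to the members with the largest change each way. Added after their values were seen were Gpr17, Mag, Mog, Cnp, Col1a2, Top2a, Hes5, Slc1a2, Lum, Dcn, Dsel, Ptprs, Pvalb, Rgs5, Kcnj8, Abcc9 and Ttr. The other link protein genes and the dim Adamts and tenascin genes were added likewise. Alternatives were another normalization, offsets, filters, probe set choices and variance model, a replicate block, and each array left out.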

Additional observations from a re-analysis of the deposited data

How the results depend on the processing

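Ncan, Vcan, Cspg5, Tnr and Tnc kept their direction in all 13 alternatives and stayed past the threshold in those with all 4 arrays. They were read by their main probe sets, or by the mean of their tested probe sets where probe sets were averaged. With 1 array left out, 2493 to 2992 genes were higher in astrocytes, the member genes higher in astrocytes numbered 1 to 2 and the member probe sets 1 to 3. Ptprz1 was the gene lost: without a filter and without the mean-variance trend 1 member gene and 2 member probe sets were higher in astrocytes, and averaging its probe sets turned its log2 fold change to 1.01, which left 1 member gene higher in astrocytes; the cause was not tested. A lone array left in a group was assumed to vary like the other group. Bcan, never past the threshold, had log2 fold changes of -0.04 to 0.07 with 1 array left out, the first without astrocytes replicate 1, as did its probe set 1441899_x_at. With the filter at the 75th percentile fewer genes were tested, and 20 pathway genes were higher in neurons, against 33. Same-numbered arrays of both groups did not deviate together (correlation -0.09 across tested probe sets), so the replicate number is not taken as a pairing; with the replicate block 3677 genes were higher in neurons, 3727 in astrocytes, 4 and 2 of them members, and no member gene or probe set changed its call. The filter, the 2 arrays per group and the absence of detection calls limit what can be said of the dim genes, Acan and Hapln1 in particular.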
